A study of Mus musculus with 6 samples.

Results

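The 34 genes described here are those of cholesterol and lipid synthesis under the control of SREBP and LXR, named in a given list and looked up by symbol among the 45777 genes of a mouse heart RNA-sequencing table. All 34 were found, and none fell under the minimum, a mean of 10 counts per library, which 18328 genes reached in total. The mice were BALB/c nude (CAnN.Cg-Foxn1nu/Crl), 6 weeks old, and every group, Control included, carried a subcutaneous tumour of MDA-MB-231, a human breast cancer cell line. The nude strain lacks a thymus and so most T cells. From day 7 after the tumour cells were injected, treatment ran for 3 weeks with doxorubicin (Dox), an anthracycline that damages the heart, with Rh2, a ginsenoside of ginseng with a sterol-like triterpenoid skeleton, or with both. Dox was given every other day at 2 mg/kg in saline to a cumulative 22 mg/kg, and Rh2 daily at 20 or 30 mg/kg in PBS with Tween 80. The 6 groups, under the submitters' short labels without their first letter, were Control (neither agent), Rh2_20 and Rh2_30 (Rh2 alone at 20 or 30 mg/kg), Rh2_20-Dox and Rh2_30-Dox (the same doses given together with Dox), and Dox alone, each with 1 library made from 5 pooled hearts, so the spread between animals of a group was not measured. Each library held 86164411 to 90621002 counts.

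Cells make cholesterol from acetyl-CoA through the mevalonate arm and then the sterol arm of one long pathway, and they make fatty acids from the same precursor. The transcription factors SREBP1 and SREBP2 switch these genes on: Scap carries them from the endoplasmic reticulum to the Golgi for cleavage when membrane sterol is low, and Insig proteins hold Scap back when it is high. LXR receptors sense oxidized sterols and turn on cholesterol efflux and SREBP1, and in the heart, which burns fatty acids and makes little of either lipid, the synthesis genes are usually weakly expressed.

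Per transcript length, in FPKM (fragments scaled to transcript length and library size), the members' medians over the libraries ran from 17.4 for Abca1 to 0.102 for Hmgcs1. Abca1, which exports cholesterol from the cell, ranged from 15.2 to 19.3 FPKM. Npc1, which moves cholesterol out of lysosomes, followed with a median of 14.9 FPKM, and its range of 13.7 to 16.1 overlapped that of Abca1. Nr1h2, the gene of LXR beta, had a median of 11.7 FPKM and Nr1h3, the gene of LXR alpha, one of 5.52. Among the regulators, the median was 6.90 FPKM for Scap, 6.51 for Srebf2 and 4.42 for Srebf1. At the low end stood Hmgcs1, the cytosolic HMG-CoA synthase, at 0.102 FPKM, Sqle, the squalene epoxidase, at 0.375, and Idi1, the isopentenyl diphosphate isomerase, at 0.822. Genes of efflux and transport were found at both ends, with Abcg1 at 0.973 FPKM and Stard4 at 1.06. The libraries were made with capture probes, and how evenly the probes take up different genes was not tested, so these levels between genes are approximate.

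**Figure D1:**
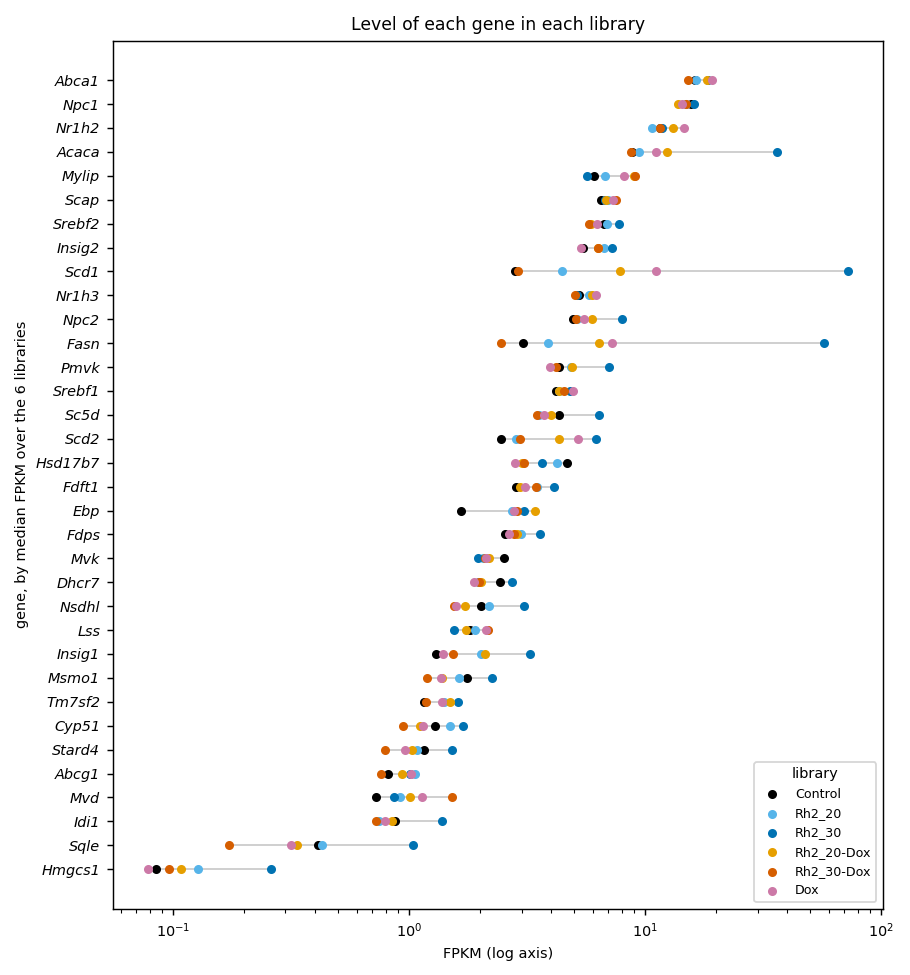
FPKM on a log axis of each of the 34 genes (rows, ordered by median) in each of the 6 libraries (coloured points, with a grey line from lowest to highest). Most genes span a narrow range, while Fasn and Scd1 reach 57.5 and 72.3 FPKM in the Rh2_30 library.

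SREBP proteins bind sterol elements close to the start of their targets, next to CCAAT boxes bound by NF-Y, so the promoters of the members were searched for these letters. RefSeq promoters of 300 bases (250 before and 50 after the start site, GRCm38.p6) were at hand for 26 of the 34 members, 35 promoters in all. A core of the sterol element, spelled CACNCCAC or CACNCCAT on either strand, was in 4 genes, 11.4% of the members' promoters against 9.11% of all promoters. CCAAT on either strand was in 21 genes, 62.9% of the promoters against 37.4% of all, and the E-box CACGTG was in 6 genes, 20.0% against 7.15%. The share with the sterol core is near that of all promoters, and whether the core goes with the levels below was not tested. All 4 genes with the core are shown, and each window runs 5′ to 3′ along the gene with the core in capitals:
Srebf2 (chr15:82147097-82147126, + strand): tgacgcaccatCACCCCATgagccgcttcg
Hmgcs1 (chr13:119690204-119690233, + strand): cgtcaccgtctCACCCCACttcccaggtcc
Insig1 (chr5:28071382-28071411, + strand): gggcgcggtacgtgtagtgtcGTGGCGTGt
Msmo1 (chr8:64733736-64733765, - strand): ctcactattctCACTCCATccgcgcagcca
The core lies 161 bases before the start site in Srebf2, 136 in Hmgcs1, 9 in Insig1, where it is on the opposite strand, and 176 in Msmo1. All 4 also hold a CCAAT box, which does not overlap the core. Cyp51 and Nsdhl, enzymes of the sterol arm that stood lower in the Dox libraries, have a CCAAT box and no sterol core in these 300 bases, shown with the box in capitals:
Cyp51 (chr5:4104710-4104739, - strand): ccgctgtccgccaCCAATctggtcctgaga
Nsdhl (chrX:72918399-72918428, + strand): cagcccgcttcccATTGGtttgggaacgaa
The box lies 29 bases before the start site in Cyp51, and Nsdhl has a pair of boxes, 109 (shown) and 20 bases before it. These matches describe letters only, and no factor's binding was measured in these hearts.

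Across the 6 libraries, the highest level of a member was a median of 1.61 times its lowest (in CPM, counts scaled to library size with TMM factors), against 1.504 times over all genes tested. The range was over 2-fold for 8 members (Insig1, Hmgcs1, Mvd, Sqle, Fasn, Acaca, Scd1 and Scd2), and without the Rh2_30 library for 5 (Mvd, Sqle, Fasn, Scd1 and Scd2), with a median of 1.33 times. That library held the highest level of 21 of the 34 members, where 26.1% of all genes tested had their highest level there. The same library also stood apart in genes of other cell types. The 7 white fat markers summed to 218 CPM in it and to 0.495 to 41.0 CPM in the other 5 libraries, with 6 of the 7 detected and Lep at 0. The 4 brown fat markers summed to 96.9 CPM against 3.66 to 9.18, and Ucp1, which defines brown fat, had 6442 counts against 0 to 12. The sums of fibroblast markers (1142 CPM against 705 to 1034), macrophage markers (512 against 266 to 440) and Schwann cell markers (46.6 against 18.7 to 25.8) were highest there too. Not every gene of these lists was. The fibroblast markers Dcn (591 CPM) and Pdgfra (99.1) were higher in Rh2_20-Dox (655 and 110) and in Dox (613 and 107). The macrophage marker Fcgr1 and the Schwann cell marker Sox10 were highest in Dox. The 7 cardiomyocyte markers, present in every library, had their lowest sum in Rh2_30 (19564 CPM against 22909 to 26958). Of the 5 liver markers, Ahsg was highest there (38.5 CPM against 6.24 to 21.5), Alb, Ttr and Serpina1a were not, and Fgb was at 0 in every library. The sum of epidermis markers was highest in Rh2_30 as well, at a low level (1.59 CPM against 0.426 to 0.764), though Krt14 was higher in Rh2_20-Dox. The sums of endothelial markers (1414 to 1643 CPM) and skeletal muscle markers (1.65 to 3.26) were not highest there. In pooled tissue, more cells of a type and more RNA per cell cannot be told apart, and the part that these cell types had in the members' levels was not tested.

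**Figure D2:**
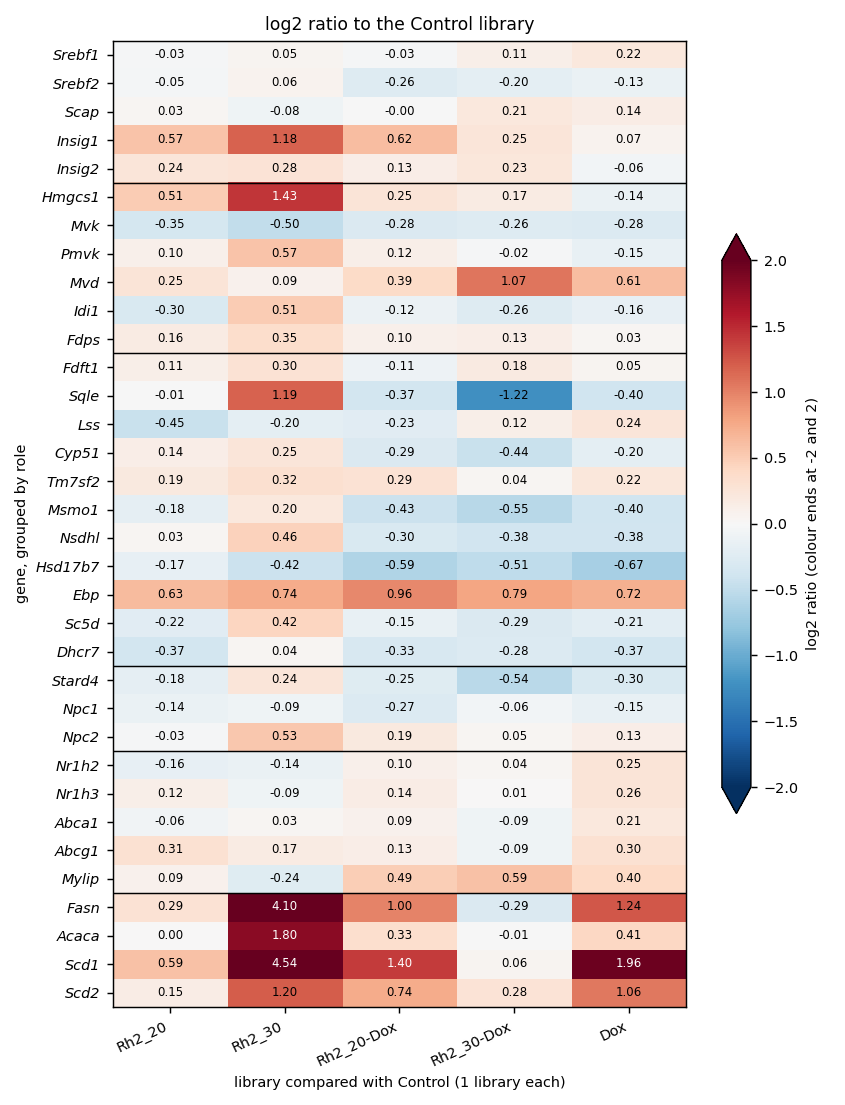
log2 ratio of each treated library to the Control library for the 34 genes, with lines between the roles: regulators, mevalonate arm, sterol arm, sterol transport, LXR receptors and targets, and fatty acid synthesis. Red is higher and blue lower than Control, and the darkest column of the fatty acid block is Rh2_30.

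The first question was how each treated library stood against Control. With 1 library on each side there was no replicate check and no p-value, all 5 comparisons shared the Control library, and a gene was counted when it differed by a fold of 2 or more. Each log2 ratio is given with a 95% interval that adds the dispersion common to all genes (0.0285) to the counting error, which alone is far smaller.

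Fasn, Scd1 and Acaca were much higher in the Rh2_30 library than in the other 5, and Scd2 was highest there but close to its level in Dox. Fasn (Gene ID 14104, chr11:120805958-120825166, build GRCm38), the fatty acid synthase, had 40.7 CPM in Control, 49.7 in Rh2_20, 697 in Rh2_30, 81.2 in Rh2_20-Dox, 33.2 in Rh2_30-Dox and 96.0 in Dox. Its log2 ratio to Control was 4.10 (3.42 to 4.78) in Rh2_30 and 1.24 (0.56 to 1.92) in Dox. Only these 2 libraries passed the fold of 2 for Fasn, and Rh2_20-Dox came just short of it with a fold of 1.997. Scd1 (Gene ID 20249, chr19:44394450-44407709), a stearoyl-CoA desaturase that makes monounsaturated fatty acids, had 18.4 CPM in Control, 27.6 in Rh2_20, 427 in Rh2_30, 48.5 in Rh2_20-Dox, 19.1 in Rh2_30-Dox and 71.7 in Dox. The log2 ratio of Scd1 to Control was 4.54 (3.86 to 5.22) in Rh2_30, 1.96 (1.28 to 2.64) in Dox and 1.40 (0.72 to 2.08) in Rh2_20-Dox. For both genes the order from the top was Rh2_30, Dox, Rh2_20-Dox and Rh2_20, and Rh2_30-Dox was close to Control.

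Acaca and Scd2 moved the same way with smaller ratios. Acaca (Gene ID 107476, chr11:84129635-84401651), the acetyl-CoA carboxylase that starts fatty acid synthesis, had 122 CPM in Control, 123 in Rh2_20, 427 in Rh2_30, 154 in Rh2_20-Dox, 122 in Rh2_30-Dox and 162 in Dox. Scd2 (Gene ID 20250, chr19:44293676-44306864), another desaturase, had 17.99 CPM in Control, 19.9 in Rh2_20, 41.4 in Rh2_30, 30.1 in Rh2_20-Dox, 21.8 in Rh2_30-Dox and 37.5 in Dox. Against Control, the log2 ratio of Acaca was 1.80 (1.13 to 2.48) in Rh2_30 and that of Scd2 was 1.20 (0.52 to 1.88), and Scd2 was also higher in Dox by 1.06 (0.38 to 1.74). Acaca and Scd2 are among the 8 members that overlap another gene with counts (with Srebf1, Mvd, Fdft1, Tm7sf2, Npc1 and Nr1h3), and reads of Scd1 and Scd2, which are near copies side by side on chromosome 19, may have been shared between them. The summed white fat markers were 218 CPM in Rh2_30, 41.0 in Dox, 22.3 in Rh2_20-Dox, 18.2 in Rh2_20, 5.08 in Control and 0.495 in Rh2_30-Dox. Fasn had this same order over all 6 libraries, and Acaca, Scd1 and Scd2 shared its first 3 places. The other places of Acaca were nearly equal, at 122.6 CPM in Rh2_20, 122.3 in Control and 121.8 in Rh2_30-Dox. The part of fat in these ratios was not tested.

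**Figure D3:**
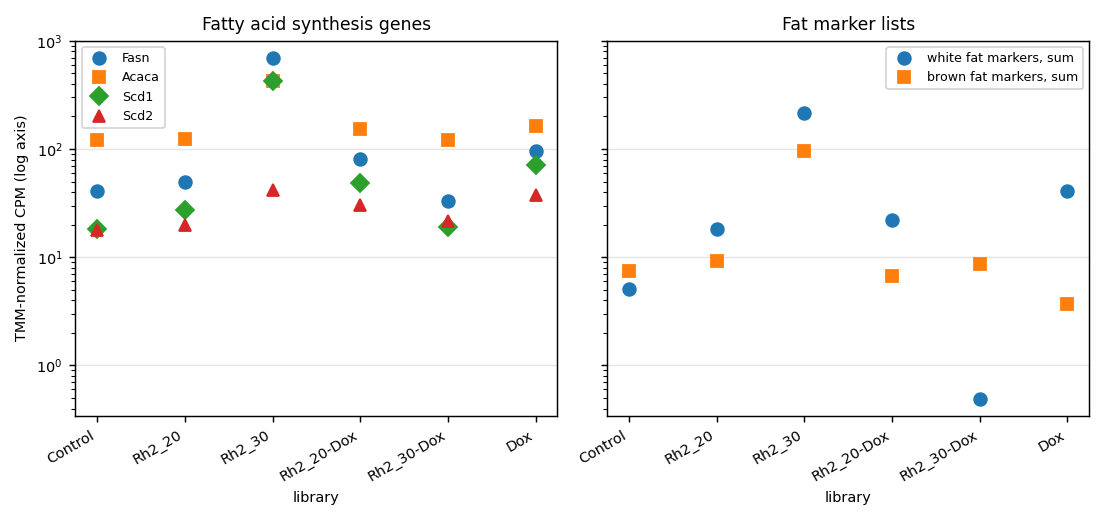
TMM-normalized CPM on a log axis of the 4 fatty acid synthesis genes (left) and of the summed white and brown fat marker lists (right) in each of the 6 libraries, 1 point per library. Rh2_30 is highest in every series, and white fat markers range from 0.495 to 218 CPM.

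Outside fatty acid synthesis, 3 members passed the fold of 2 in Rh2_30, all at low levels. Insig1 (Gene ID 231070, chr5:28071412-28078662), which retains Scap, had 4.65 CPM in Control, 6.90 in Rh2_20, 10.5 in Rh2_30, 7.16 in Rh2_20-Dox, 5.52 in Rh2_30-Dox and 4.89 in Dox. Hmgcs1 (Gene ID 208715, chr13:119690351-119708260) had 35 counts in Control, 54 in Rh2_20, 108 in Rh2_30, 46 in Rh2_20-Dox, 41 in Rh2_30-Dox and 32 in Dox. Sqle (Gene ID 20775, chr15:59315092-59331193) had 128 counts in Control, 137 in Rh2_20, 332 in Rh2_30, 109 in Rh2_20-Dox, 57 in Rh2_30-Dox and 98 in Dox. All 3 were highest in Rh2_30, with log2 ratios to Control of 1.18 (0.48 to 1.87) for Insig1, 1.43 (0.56 to 2.30) for Hmgcs1 and 1.19 (0.45 to 1.92) for Sqle. Sqle was at the other extreme in Rh2_30-Dox, where its log2 ratio to Control was -1.22 (-2.03 to -0.41).

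In total, 7 of 34 members were higher by a fold of 2 or more in Rh2_30 than in Control (Fasn, Scd1, Acaca, Scd2, Hmgcs1, Sqle and Insig1), where 8.48% of all genes tested were. No member was lower by that fold, against 1.63% of all genes. At a fold of 1.5 in either direction, 8 members were called against 21.8% of all genes, which is near the background share. The median log2 ratio of the members was 0.26, against 0.03 over all genes, and it was 2.95 for the 4 fatty acid genes, 0.43 for the 6 of the mevalonate arm, 0.30 for the 11 of the sterol arm, 0.24 for the 3 of sterol transport, 0.06 for the 5 regulators and -0.09 for the 5 LXR genes. The LXR receptors and the targets Abca1, Abcg1 and Mylip had log2 ratios from -0.24 to 0.17 there. Srebf1 and Srebf2 themselves had log2 ratios of 0.05 and 0.06 in this library.

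In Dox, 3 members were higher by a fold of 2 or more (Fasn, Scd1 and Scd2; 5.44% of all genes) and none was lower (3.58%). In Rh2_20-Dox, 1 member was higher (Scd1; 5.13%) and none lower (3.62%). In Rh2_30-Dox, 1 was higher, Mvd, the mevalonate diphosphate decarboxylase (4.08%), and 1 lower, Sqle (6.85%). In Rh2_20 no member was higher (3.35%) or lower (2.8%). Counts of 0 to 3 among 34 members are near these background shares. Mvd (Gene ID 192156, chr8:122433596-122443422) had 1.74 CPM in Control, 2.08 in Rh2_20, 1.86 in Rh2_30, 2.28 in Rh2_20-Dox, 3.66 in Rh2_30-Dox and 2.67 in Dox, so all 3 Dox libraries were above the 3 others. Its log2 ratio to Control in Rh2_30-Dox was 1.07 (0.34 to 1.80).

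Control was the lowest library for 7 members (Insig1, Mvd, Fdps, Tm7sf2, Ebp, Scd1 and Scd2) and the highest for 3 (Mvk, the mevalonate kinase, Hsd17b7 and Npc1), where 17.2% and 17.1% of all genes were. Of the 7, Ebp, Fdps and Tm7sf2 passed the fold of 2 in no library. Ebp (Gene ID 13595, chrX:8185329-8193512), the isomerase that moves a double bond in the sterol ring, had 3.93 CPM in Control and 6.10 to 7.64 CPM in the others. The log2 ratio of Ebp ran from 0.63 in Rh2_20 to 0.96 in Rh2_20-Dox. With the dispersion of 0.0285 the interval left out 0 in 4 of the 5 libraries, the exception being Rh2_20 (-0.07 to 1.34). With the larger Cox-Reid dispersion of 0.0864, an alternative described below, the interval of Ebp included 0 in every library, also in Rh2_20-Dox (-0.23 to 2.15). The log2 ratios ran from 0.03 to 0.35 for Fdps and from 0.04 to 0.32 for Tm7sf2. Since every ratio of this kind rests on the 1 Control library, the values cannot tell a change with treatment from a low or high Control.

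The second question was whether the members differed between the 3 libraries with Dox and the 3 without, taking the Rh2 doses (0, 20 and 30 mg/kg) as the replicates on each side. For 7 members every library with Dox lay below every library without, 5 of them enzymes of the sterol arm, and for 3 members every library with Dox lay above. No member passed an adjusted p of 0.05 in edgeR's quasi-likelihood test (two-sided, Benjamini-Hochberg over 18328 genes), where 5 genes or 0.0273% did. At an unadjusted p under 0.05 stood the same 10 members, 3 higher (4.2% of all genes) and 7 lower (5.91%). Of all genes, 7.85% had every Dox library above every other and 9.16% had every Dox library below, so 7 of 34 is above the background share and 3 of 34 is not far from it.

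Of the sterol arm, Cyp51, the lanosterol demethylase, had 7.60 CPM in Control, 8.36 in Rh2_20 and 9.01 in Rh2_30, against 6.62 in Dox, 6.21 in Rh2_20-Dox and 5.60 in Rh2_30-Dox. Its log2 difference was -0.44 ± 0.12 (SE; adjusted p = 0.344). Msmo1, a methylsterol monooxygenase acting after it, had 4.41, 3.88 and 5.07 CPM without Dox and 3.34, 3.27 and 3.00 with it, in the same order of Rh2 dose, a log2 difference of -0.47 ± 0.16 (adjusted p = 0.403). For both genes the highest library of the 6 was Rh2_30 and the lowest Rh2_30-Dox. Nsdhl, the dehydrogenase that removes a carbon of the sterol's methyl groups with Msmo1, had 6.07, 6.22 and 8.35 CPM without Dox and 4.68, 4.94 and 4.67 with it (log2 difference -0.53 ± 0.16, adjusted p = 0.350). Hsd17b7, the ketoreductase of the same demethylation, had 26.3, 23.4 and 19.6 CPM without Dox and 16.5, 17.4 and 18.5 with it (log2 difference -0.40 ± 0.13, adjusted p = 0.369). Hsd17b7 was the only one of these in which the Rh2_30 pair of libraries lay close together. Sqle had 1.54, 1.52 and 3.50 CPM without Dox and 1.17, 1.19 and 0.656 with it, for a log2 difference of -1.12 ± 0.42 (adjusted p = 0.435). Without the Rh2_30 library the difference of Sqle was -0.60.

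Srebf2, the gene of SREBP2, which drives these enzymes, had 41.9, 40.6 and 43.8 CPM without Dox and 38.2, 35.0 and 36.4 with it, a log2 difference of -0.20 ± 0.08 (adjusted p = 0.457). Stard4, a carrier that moves cholesterol between membranes, had 8.35, 7.38 and 9.86 CPM without Dox and 6.79, 7.04 and 5.73 with it, a log2 difference of -0.39 ± 0.15 (adjusted p = 0.453). In both genes the groups were separate but close, with the nearest libraries 40.6 and 38.2 CPM for Srebf2 and 7.38 and 7.04 CPM for Stard4. The other 6 genes of the sterol arm overlapped between the groups: Fdft1, the squalene synthase (log2 difference -0.09), Lss, the lanosterol synthase (0.26), the sterol reductases Tm7sf2 (0.01) and Dhcr7 (-0.22), the desaturase Sc5d (-0.31) and Ebp (0.33). The median of the 11 genes of the sterol arm was -0.31 and that of the 6 mevalonate genes -0.17, against -0.01 over all genes tested. Of the 7 genes that lay lower with Dox, Srebf2 and Msmo1 have the sterol core printed above. Cyp51, Nsdhl and Hsd17b7 have a CCAAT box without that core as spelled, and Sqle and Stard4 were not in the promoter table. Whether the core, found in 4 of the 26 members with a promoter, goes with these levels was not tested.

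Higher in every library with Dox were Mvd, Mylip and Nr1h2. Mylip (Gene ID 218203, chr13:45389742-45411940), a ubiquitin ligase induced by LXR that sends lipoprotein receptors to degradation, had 24.5, 26.0 and 20.6 CPM without Dox and 32.3, 34.3 and 36.8 with it. Its log2 difference of 0.54 ± 0.11 had the smallest adjusted p of the 34 members, 0.235. Mylip was the 1 member with an adjusted p under 0.05 in DESeq2's Wald test, which called 425 genes in all, and none was called by limma on log2(FPKM + 1). Nr1h2 had 33.1, 29.6 and 30.0 CPM without Dox and 39.4, 35.3 and 34.0 with it (log2 difference 0.23 ± 0.09, adjusted p = 0.483), and Mvd had a log2 difference of 0.60 ± 0.22 (adjusted p = 0.439), which was 0.39 without the Rh2_30-Dox library. The other LXR genes had overlapping groups, with log2 differences of 0.13 for Nr1h3, 0.08 for Abca1 and -0.04 for Abcg1, the last of which pumps cholesterol to lipoproteins beside Abca1. The summed blood markers were 6848 CPM in Dox, 3787 in Rh2_20-Dox and 1051 in Rh2_30-Dox, against 1629 to 2256 without Dox, and their part in the level of Mylip was not tested.

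**Figure D4:**
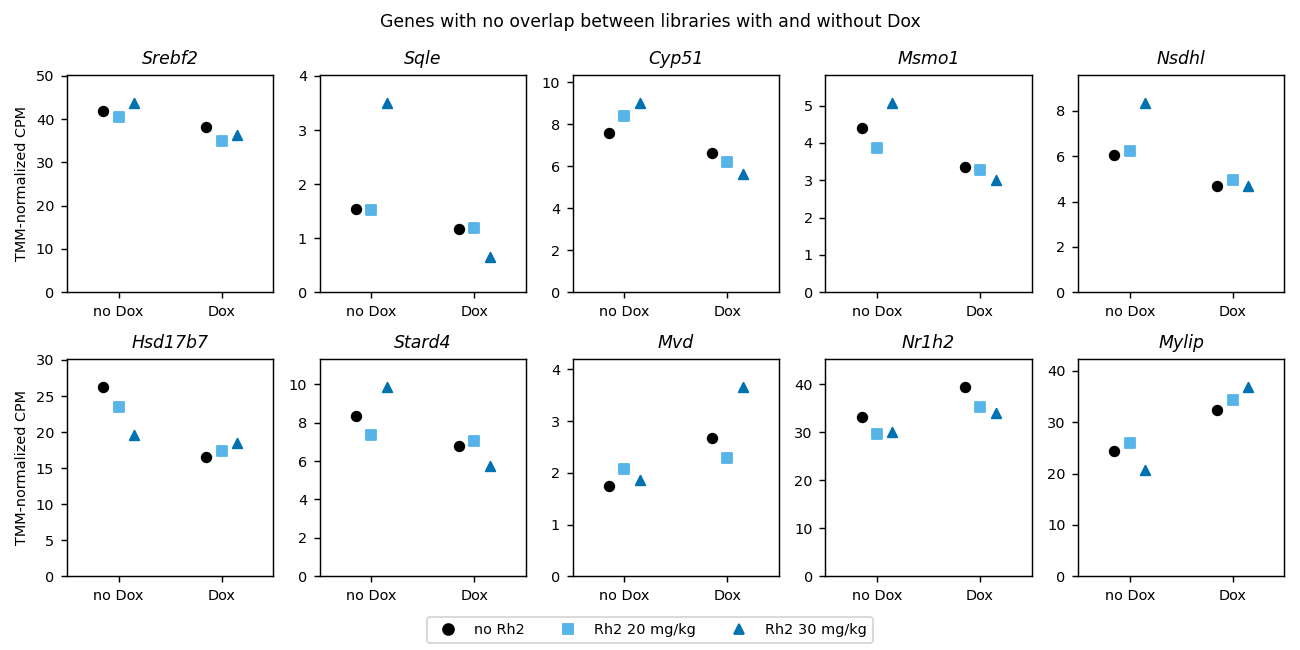
TMM-normalized CPM from 0 in the 3 libraries without and the 3 with Dox for the 10 genes whose groups did not overlap, with the Rh2 dose by symbol (1 point per library). The first 7 panels lie lower with Dox and the last 3 higher, and in Sqle and Nsdhl the Rh2_30 library without Dox is far above the rest.

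Without the Rh2_30 library, the 7 lower members were still separate, against 14.3% of all genes, and 6 were higher with Dox (Mvd, Nr1h2, Mylip, Ebp, Npc2, the lysosomal partner of Npc1, and Scd2), against 13.2%. The quasi-likelihood fit without that library had 2 members higher and 3 lower at an unadjusted p under 0.05, and 0 at an adjusted p. The fatty acid synthesis genes had log2 differences with Dox of -1.90 ± 1.09 for Fasn, -1.76 ± 1.17 for Scd1, -0.62 ± 0.49 for Acaca and 0.17 ± 0.35 for Scd2, with the Rh2_30 library on the side without Dox.

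The third question was whether the members differed between the 4 libraries with Rh2 and the 2 without, with Dox as a term. Insig1, Insig2, Hmgcs1 and Fdps were higher in every library with Rh2 than in both without it, but no member passed an adjusted p of 0.05 and neither did any other gene (0%). At an unadjusted p under 0.05 were 3 members higher, Insig1, Insig2 and Ebp (4.09% of all genes), and none lower (4.65%). By DESeq2's Wald test 0 members and 242 genes had an adjusted p under 0.05. Every library with Rh2 was above both others for 9.87% of all genes and below both for 9.08%, so 4 of 34 is near the background share, and no member was below. The log2 difference was 0.63 ± 0.25 for Insig1 (adjusted p = 0.569), 0.25 ± 0.08 for Insig2 (adjusted p = 0.567) and 0.42 ± 0.17 for Ebp (adjusted p = 0.569). For Hmgcs1 it was 0.69 ± 0.40 (adjusted p = 0.632) and for Fdps 0.17 ± 0.14 (adjusted p = 0.715). The nearest libraries of Hmgcs1 had only 41 counts (Rh2_30-Dox) and 35 counts (Control). The difference of Ebp was 0.16 without the Control library and 0.69 without the Dox library.

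Of the 4 genes higher in every library with Rh2, Insig1 and Hmgcs1 have the sterol core as spelled above. Insig2 has a CCAAT box without that core, and Fdps was not in the promoter table. The core was in 4 of the 26 members with a promoter, and whether it goes with these levels was not tested. Insig2 (Gene ID 72999, chr1:121304353-121332662) had 19.6 CPM in Control and 18.8 in Dox, and with Rh2 it had 23.2 (Rh2_20), 23.8 (Rh2_30), 21.5 (Rh2_20-Dox) and 23.0 (Rh2_30-Dox). Insig1 was 4.65 and 4.89 CPM without Rh2 and 5.52 to 10.5 with it, and Fdps, the farnesyl diphosphate synthase, was 4.30 and 4.40 CPM without Rh2 and 4.60 to 5.47 with it. Without the Rh2_30 library, the same 4 members stayed above, against 12.7% of all genes, none was below, against 12.5%, and the log2 difference of Insig1 was 0.47. Without the Control library it was 0.37, and no member had an unadjusted p under 0.05. The single ratios of Insig1 to Control had intervals that included 0 in every library but Rh2_30. With the Cox-Reid dispersion of 0.0864 the interval in Rh2_30 included 0 as well (-0.01 to 2.36).

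The fourth question, the one the treatment was designed for, was whether Rh2 given with Dox moved the members away from Dox alone. Against the Dox library, which both comparisons shared, no member differed by a fold of 2 in Rh2_20-Dox, while 3.08% of all genes were higher and 3.44% lower. In Rh2_30-Dox, 2 members were lower, Fasn and Scd1 (7.35% of all genes), and none was higher (2.76%). A count of 2 among 34 members is not above the background share. The log2 ratio of Fasn was -1.53 (-2.21 to -0.86) and that of Scd1 -1.91 (-2.58 to -1.23), with Scd2 at -0.78 (-1.46 to -0.10) and Acaca at -0.41 (-1.09 to 0.26). The levels of Fasn, Scd1 and Acaca in Rh2_30-Dox were close to those of Control, and the white fat markers in that library were the lowest of all, at 0.495 CPM against 41.0 in Dox, with Adipoq at 8 counts against 650.

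Set side by side, the ratios for the same Rh2 dose without and with Dox had opposite signs in the fatty acid genes. At 30 mg/kg, Fasn was 4.10 on the log2 scale above Control and -1.53 relative to Dox, and the pair of values was 4.54 and -1.91 for Scd1, 1.80 and -0.41 for Acaca and 1.20 and -0.78 for Scd2. Sqle also turned, from 1.19 to -0.82. Most of the other members turned at this dose too, with smaller ratios, among them Idi1, Npc2, Cyp51 and Mylip. Opposite signs were thus not particular to the fatty acid genes, and their share over all genes was not counted. Insig1 (1.18 and 0.18) and Hmgcs1 (1.43 and 0.31) kept their sign. Their intervals against Dox included 0, at -0.53 to 0.88 for Insig1 and -0.64 to 1.25 for Hmgcs1. At 20 mg/kg, Insig1 had 0.57 without and 0.55 with Dox, Scd1 had 0.59 and -0.56, and Acaca was near 0 in both (0.003 and -0.08). The interaction of Dox and Rh2, which tests this difference over both doses, had 0 members and 0% of all genes at an adjusted p under 0.05 and no member at an unadjusted p under 0.05 (0.895% of all genes higher, 1.82% lower), with 0 members among the 38 genes called by DESeq2's Wald test. For Scd1 the interaction was -4.71 ± 2.26 (adjusted p = 0.988), the smallest unadjusted p of the 34 members.

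**Figure D5:**
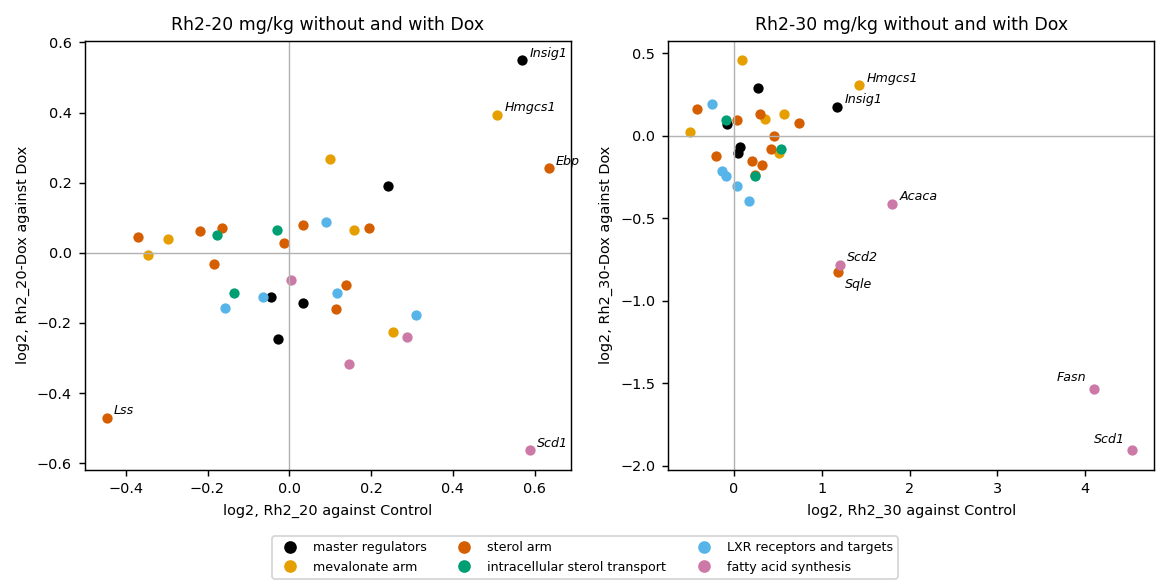
log2 ratio of each of the 34 genes for Rh2 against Control (horizontal) and for Rh2 + Dox against Dox (vertical), at 20 mg/kg (left) and 30 mg/kg (right), coloured by role. At 30 mg/kg Fasn, Scd1, Acaca, Scd2 and Sqle lie to the right and below 0, and the axes of the panels differ in scale.

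Beyond the 34, a further list of 30 genes of sterol and fatty acid synthesis, all with a mean of at least 10 counts, had 0 genes at an adjusted p under 0.05 in edgeR's test with Dox or with Rh2, and 1 at an unadjusted p under 0.05 in each (lower with Dox, higher with Rh2). In Rh2_30, 8 of the 30 were higher than Control by a fold of 2 or more and none lower, against 8.48% and 1.63% of all genes. Scd4, another stearoyl-CoA desaturase, was past that fold in 2 libraries, with log2 ratios of 1.98 in Rh2_30 and 1.29 in Rh2_30-Dox, and 7.90 CPM in Control. Chosen after their values were seen, Elovl6, an elongase of fatty acids (3.81), and Thrsp, a lipogenic regulator (2.57), had the largest ratios to Control in Rh2_30 beside Scd3 (3.01). Of a list of 21 genes of sterol handling and LXR partners, 19 had a mean of at least 10 counts, 0 passed an adjusted p of 0.05 (at an unadjusted p under 0.05, 2 higher and 1 lower with Dox, 3 higher and 3 lower with Rh2), and 0 were past the fold of 2 in Rh2_30. Soat2, which esterifies cholesterol, was past it in 3 libraries at very low counts, with 44 in Control, 102 in Rh2_20, 122 in Rh2_20-Dox and 16 in Dox.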

How the data were processed

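Total RNA of mouse hearts was sequenced after capture with the SureSelectXT RNA Direct kit, in 6 libraries grouped by their labels. The authors' deposited read counts were whole numbers per gene without normalization. Per the submitters' processing notes the tools were bcl2fastq 2.20.0, Trimmomatic, HISAT2 2.1.0 and StringTie 2.1.3b, with genome build mm10 and the UCSC annotation. Reads of near-identical or overlapping genes were assigned by the authors' tools, and whether strand was used is not given in the sources used here. The authors' deposited FPKM values were scaled by StringTie to transcript length and library, and served here for levels between genes and as an alternative.

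The count tests used edgeR 4.0.16 in R 4.3.3 (TMM, quasi-likelihood test, Benjamini-Hochberg adjustment), with genes of a mean of at least 10 counts. Alternatives used DESeq2 1.42.0 and limma 3.58.1. The study's methods name edgeR and a fold of 2. p-values measure only the spread between these libraries, and the Dox comparison takes any Rh2 effect as spread. Ratios of single libraries used a prior count of 0.5, and their 95% intervals combined counting error with the common dispersion of all libraries as 1 group. Its estimator, a robust deviance estimator (0.0285), was chosen after the intervals under another (Cox-Reid, 0.0864) had been seen, and both are given below. At this depth counting error is small except for Hmgcs1, Sqle, Mvd and Soat2, and it covers counting only. Promoters were searched in Python 3.11.15 and plots drawn with matplotlib 3.10.9. Scripts were tested on simulated data.

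The members, the gene and marker lists and the alternatives (other normalizations and filters, DESeq2, limma, a prior count of 2, a fold of 1.5, FPKM, each library left out, Rh2 dose as a block or number) were chosen with earlier results of these data known. All 34 members are named, and other genes were named if past an adjusted p of 0.05, or past a fold of 2 in at least 2 of the 5 comparisons with Control, unless said to be chosen after their values were seen. The TPM values and the authors' other columns were not used.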

Additional observations from a re-analysis of the deposited data

How the results depend on the processing

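With 1 library per condition the limits are set by the number of libraries, not by depth. With the dispersion of 0.0285, a log2 difference under about 0.67 in a single comparison is within the dispersion between libraries. With the Cox-Reid dispersion of 0.0864 this limit is wider and takes in some ratios past the fold of 2. An example is Scd2 in Dox against Control, at 1.06 (-0.12 to 2.24). Counts of members called against Control moved with the fold. At 1.5, in either direction, 8 members were called in Rh2_30, where 21.8% of all genes were, which is near the background share. In the other libraries they were 2 in Rh2_20 (13.6% of all genes), 6 in Rh2_20-Dox (18.3%), 4 in Rh2_30-Dox (22.7%) and 6 in Dox (19.5%). Against Dox they were 4 in Rh2_30-Dox (22.4%) and 0 in Rh2_20-Dox (14.3%). On FPKM plus 1 the counts against Control were 4 in Rh2_30 and 0 in Rh2_30-Dox, since 1 added to low values shrinks ratios. In all, 65 of the single ratios moved. Counted by an interval that leaves out no change, with the dispersion of 0.0285, they were 8 in Rh2_30 (13.1% of all genes), 4 in Rh2_20-Dox (10.3%), 3 in Rh2_30-Dox (13.4%), 4 in Dox (11%), 0 in Rh2_20 (6.04%) and 4 in Rh2_30-Dox against Dox (13.4%). With the Cox-Reid dispersion of 0.0864, an alternative chosen after seeing the data, they were 5, 1, 0, 2, 0 and 2, against 6.01%, 4.77%, 6.11%, 4.93%, 2.82% and 5.85% of all genes. DESeq2's size factors and a prior count of 2 moved none of these counts or ratios past that spread. No ratio past the fold of 2 changed sign under these alternatives, while of all 238 ratios 3 near 0 did so with the size factors and 19 on FPKM plus 1, the largest that of Lss in Rh2_20 (-0.45 as reported, 0.04 on FPKM plus 1).

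For Dox against no Dox, DESeq2's Wald test called 1 member (Mylip) and the other alternatives none. Each library left out in turn gave 0 members, with 2 higher and 3 to 8 lower at an unadjusted p under 0.05, the fewest without Rh2_30 or without Rh2_30-Dox. With the Rh2 dose as a replicate block the count was 0, with 3 higher and 3 lower at an unadjusted p under 0.05, and Sqle at -1.03. The labels carry no replicate numbers, so this block pairs libraries by dose only. For Rh2 against no Rh2 every alternative gave 0 members. The members that do not overlap between groups came to 13 for Dox (7 lower and 6 higher, against 14.3% and 13.2% of all genes) and 4 for Rh2 (all higher, against 12.7%, with 12.5% lower) without the Rh2_30 library, both added after seeing the data.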
